A study of Aegilops tauschii x Triticum turgidum with 4 samples.

Results

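This account describes 395 transcripts that were among the brightest in wild-type triploid wheat hybrids and follows them into hybrids whose growth stops. They are the probes named whsh_allContig that were selected on their wild-type level: each lay above the 90th percentile of all plant probes on both wild-type arrays and carried no outlier flag. The rule took 395 of 974 probes of that name (40.6%), out of 37826 plant probes on the array. The growth-abortion arrays had no part in the choice.

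The plants were triploid hybrids of Triticum turgidum (tetraploid wheat) and Aegilops tauschii, grown for 3 weeks at 23 °C. One group looked normal and is called wild type; the other showed severe growth abortion (SGA). The labels do not name the parental accessions, give no allele or treatment for either group, and do not say how many plants went into a sample. Total RNA came from crowns, the base of the shoot with its apical meristem, although the sample titles say shoot meristem and other labels mention leaf. Each group has 2 single-colour arrays. Whether the arrays of a group came from separate plants is not stated, so p-values measure the spread between arrays, which may be technical.

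Crossing tetraploid wheat with Ae. tauschii repeats the hybridisation that gave rise to bread wheat, and some parental combinations yield hybrids that die or stay stunted, a form of hybrid incompatibility. A shoot grows from its apical meristem, where cells divide before they become leaves. In shoots a small set of genes, among them genes of photosynthesis and of protein synthesis, usually supplies a large part of the messenger RNA. The names of the 395 probes are contig names, and the files pair none of them with a gene, so no member is given a function here. Markers of the crown could not be checked for the same reason.

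The 4 arrays lay on 2 slides, wild type at position 3 of each and SGA at position 4. An effect of position therefore cannot be told apart from the phenotype. Between 27627 and 30258 plant probes per array were well above background, and no member's spot was saturated. The number of arrays limits the precision: with 2 against 2, the smallest two-sided p of an exact permutation test is 0.333. Scaled values are log2 signals relative to the 75th percentile of the array, which was 0.90 log2 units higher in SGA than in wild type, while 7 spike-in probes differed by 0.018. In bulk RNA, fewer cells of a type and less RNA per cell cannot be told apart.

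Most of these abundant transcripts dropped steeply in SGA, while a smaller group stayed near its wild-type level relative to the array. The median member differed by -2.70 on the scaled log2 scale, against -0.44 for the other 3330 probes that passed the same wild-type rule and 0.16 for all 30005 tested probes. At least 4-fold lower in SGA were 231 members (58.5%), 37 were 2- to 4-fold lower (9.37%), 124 stayed within 2-fold (31.4%) and 3 were at least 2-fold higher (0.759%). Among all tested probes, 5.78% were at least 4-fold lower, 6.47% were 2- to 4-fold lower and 13.4% at least 2-fold higher. Of the other abundant probes 13.2% were at least 4-fold lower, 76.5% stayed within 2-fold and 0.871% were at least 2-fold higher.

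By limma's moderated test across all tested probes (Benjamini-Hochberg adjusted p under 0.05), 332 members fell, 22 rose and 41 did not pass. The count of rises was 13 without SGA replicate 1, 12 without SGA replicate 2 and 103 with spike-in scaling, under which 262 fell. With the main scaling, which gave 332 falls and 22 rises, the shares for all tested probes were 29.8% lower and 43.1% higher. Those for the other abundant probes were 66.5% and 12.1%. Shares under spike-in scaling are given for neither set, so the counts of 103 and 262 have no counterpart here. Choosing probes for a high wild-type level favours falls, and the arrays that chose the members also enter the difference. The 2 abundant sets differed in the value that chose them, with median wild-type signals of 33266 for the members and 18405 for the others, so their counts are a description.

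**Figure D1:**
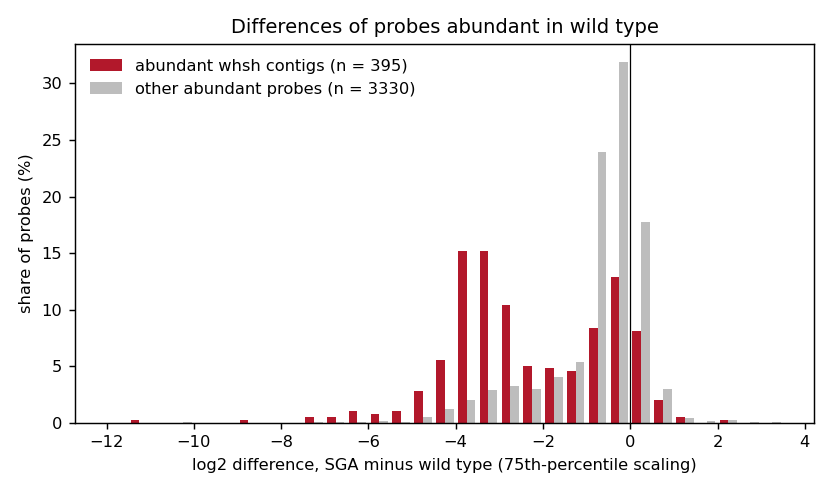
Share of probes (%) in bins of 0.5 log2 units of the scaled difference, SGA minus wild type, for the 395 abundant whsh contigs (red) and the 3330 other abundant probes (grey). The whsh contigs form a tall group between -4 and -3, with 120 members, and a second one around 0, where most other probes lie.

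The differences fell into 2 groups with fewer members between them. Between -4 and -3 on the log2 scale, that is 8- to 16-fold lower, lay 120 members, and a further 61 lay between -3 and -2. Only 37 lay between -2 and -1, whereas 84 lay between -1 and 0 and 40 between 0 and 1. The other abundant probes had 1 main group, with 1858 of 3330 between -1 and 0, and 164 between -4 and -3. The interquartile range was 3.001 log2 units for the members and 0.86 for the other abundant probes. Of the 672 abundant probes of any name that were at least 4-fold lower, 231 (34.4%) were members, which made up 10.6% of all abundant probes.

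The signals themselves show the shift before any scaling. On the wild-type arrays the members' signals ran from 7159 to 425940 with a median of 35488 (replicate 1), and from 6279 to 400199 with a median of 30373 (replicate 2). On the SGA arrays they ran from 14.4 to 384116 with a median of 14024, and from 12.3 to 346905 with a median of 14720. The upper quartile went from 75456 and 69870 to 33292 and 34138, and the lower quartile from 15258 and 13775 to 5494 and 5680. The middle and both quartiles were thus lower in SGA, while the highest signal belonged to a single probe, whsh_allContig1241, on both SGA arrays. Without scaling, 267 members were lower in SGA on both slides and 114 higher on both, and the median member differed by -1.80 where the median tested probe differed by 1.06.

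Of all plant signal, members supplied 14.3% ± 0.11 on the wild-type arrays but 5.53% ± 0.027 on those of SGA (SD, 2 arrays a group). The 231 members that were at least 4-fold lower went from 10.8% ± 0.12 to 1.57% ± 0.0090. The 127 that held or rose went the other way, from 2.54% ± 0.011 to 3.39% ± 0.0030. The other abundant probes supplied 70.9% ± 0.29 and 69.4% ± 0.22. Wild-type arrays chose the members, so their wild-type share is a description. Both classes were sorted by the SGA minus wild-type difference of these same signals. Their opposite shifts in share therefore follow from the sorting and are a description too. Members filled 29 of the 100 brightest places on each wild-type array and 6 on each SGA array.

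**Figure D2:**
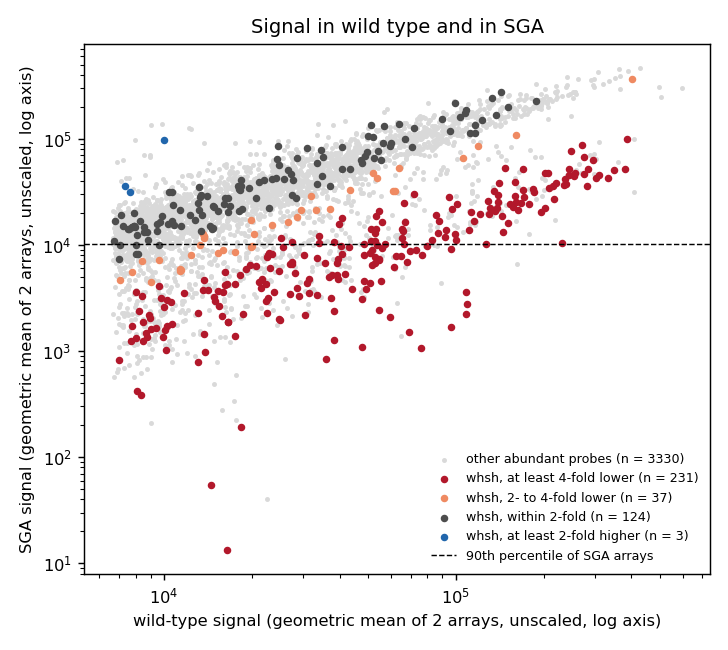
Unscaled signal in wild type (horizontal, log axis) and SGA (vertical, log axis), each the geometric mean of 2 arrays, for the 395 abundant whsh contigs coloured by their scaled difference and the 3330 other abundant probes in grey. The 231 members at least 4-fold lower form a band below the main cloud over the whole range of wild-type signal, and 89 of them still lie above the 90th percentile of both SGA arrays (the dashed line is the geometric mean of the SGA thresholds).

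Lower did not mean absent. All but 1 of the 395 members were well above background on all 4 arrays. On both SGA arrays 232 members (58.7%) still lay above the 90th percentile, a rule read on arrays that did not choose them, against 9.86% of all plant probes and 82.8% of the other abundant probes. Of those that were at least 4-fold lower, 89 of 231 still did, and their median rank on the SGA arrays was at percentiles 87.8 and 87.7, down from 97.8 and 97.9 in wild type. Only 5 of the 231 ranked below the median plant probe on both SGA arrays. Of the 124 within 2-fold, 118 remained above the 90th percentile, with median ranks at percentiles 96.3 and 96.2.

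The classes of difference can also be given by their unscaled signals. The 231 members at least 4-fold lower had median signals of 51900 and 46776 on the wild-type arrays and of 7647 and 7936 in SGA. The 124 within 2-fold had medians of 20109 and 17100 in wild type and of 32028 and 32484 in SGA. The 37 that were 2- to 4-fold lower had SGA medians of 12897 and 12705. The classes were sorted by a difference that contains the wild-type signal, which also chose the members, so the wild-type medians are a description. Signals of different probes are not levels of their transcripts on 1 scale: the 2 probes of contig 1260 read 145019 and 23.9 on the same wild-type array. Of the 124 within 2-fold, 64 fell and 19 rose by limma's test, and 41 did not pass.

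The probes that mark the ends of this range are described next, by rank and not by function. The steepest fall among members measured on all 4 arrays was that of whsh_allContig1026, whose wild-type signals of 14892 and 14085 became 51.6 and 57.7 in SGA. It went from percentiles 93.9 and 94.1 of the wild-type arrays to percentiles 25.6 and 25.5 of the SGA arrays, a log2 difference of -8.95 ± 0.061 (SE, 2 arrays a group), with an adjusted p = 4.68e-05 by limma. The groups of this probe did not overlap, which the rule that named it required. There was no overlap for 374 of the 395 members and 3106 of the 3330 other abundant probes, against 88.5% of all tested probes.

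Next in size was whsh_allContig50, which read 17994 and 18561 on the wild-type arrays against 176 and 207 in SGA. Its SGA signals were well above background and ranked at percentiles 37.2 and 37.9. It was 179-fold lower after scaling (log2 difference -7.49 ± 0.10 SE, with an adjusted p = 4.68e-05 by limma).

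A single member, whsh_allContig461, was not well above background on either SGA array, and is named after its values were seen. It read 18901 and 14221 on the wild-type arrays, then 14.4 and 12.3 in SGA. Taken against the lowest signal well above background on each SGA array (21.6 and 22.6), it was at least 1389-fold lower after scaling. It was tested only because its wild-type signals passed the filter, so no p is given. This bound compares the mean scaled wild-type signal with the mean scaled floor.

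Both members at the top of the wild-type arrays fell, by different amounts. The brightest, whsh_allContig1241, read 425940 and 379919 on the wild-type arrays against 384116 and 346905 in SGA, so that it stayed above percentile 99.9 on each array. Its scaled difference of -1.04 ± 0.094 (SE; limma, adjusted p = 0.0017) was -0.16 with spike-in scaling (limma, adjusted p = 0.225) and -0.055 with quantile normalization (limma, adjusted p = 0.491), where it did not pass. The second, whsh_allContig1285, read 372138 and 400199 in wild type but 98294 and 99656 in SGA. It was 7.29-fold lower after scaling (log2 difference -2.87 ± 0.10 SE; limma, adjusted p = 0.000184).

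Only 3 members were at least 2-fold higher. The largest rise was that of whsh_allContig639, from wild-type signals of 10767 and 9244 to 98170 and 97958, which was 5.26-fold after scaling (log2 difference 2.39 ± 0.061 SE; limma, adjusted p = 8.79e-05). It moved from percentiles 92.4 and 92.2 to percentiles 99.0 and 98.9. The next, whsh_allContig684, read 8015 and 6721 on the wild-type arrays and 35309 and 35990 in SGA (log2 difference 1.38 ± 0.064 SE; limma, adjusted p = 0.000334). The third, whsh_allContig512, named after its values were seen, read 8323 and 7041 against 31936 and 30664 (1.13 ± 0.076 SE; limma, adjusted p = 0.000836). All 3 were among the 79 dimmest members on the wild-type arrays.

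The members nearest to no scaled difference were whsh_allContig702 and whsh_allContig648. The former read 22264 and 19976 on the wild-type arrays and 39276 and 39739 in SGA, a difference of 0.0028 ± 0.051 (SE). The latter read 7863 and 7297 against 13667 and 14598, a difference of -0.0038 ± 0.049 (SE). Both passed as higher in SGA with quantile, spike-in and total-signal scaling and in the authors' deposited values, and as lower with median scaling (limma). Their unscaled signals were higher in SGA, and a scaled value near 0 means only that they shifted in step with the 75th percentile of their arrays. Of the 127 members that held or rose after scaling, 114 were brighter in SGA on both slides before it. The median unscaled difference over all 127 was 0.70 log2 units, against 1.06 for all tested probes. The count of 114 is a description: the class limit and the 0.90 log2 units between the groups' 75th percentiles largely fix it.

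**Figure D3:**
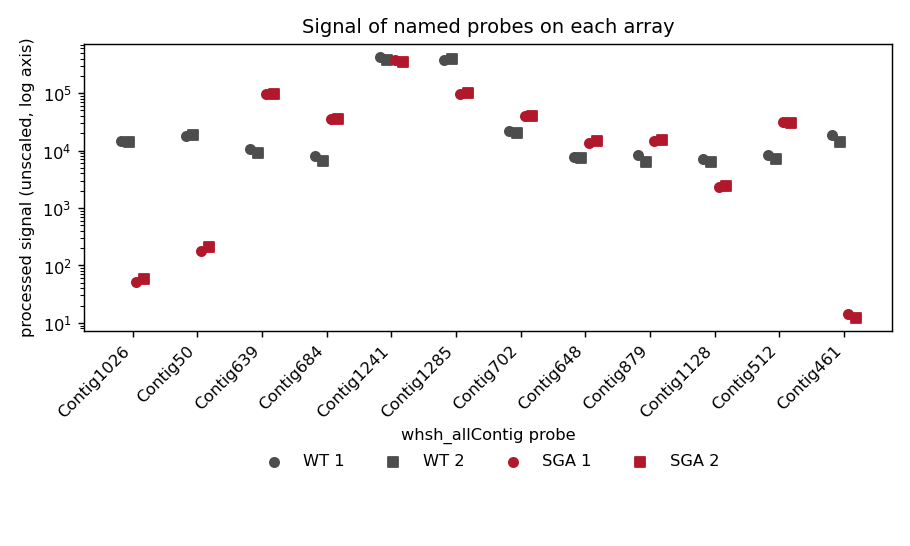
Unscaled processed signal (log axis) of 12 named whsh contigs on each array, wild type in grey and SGA in red, with circles for replicate 1 and squares for replicate 2. The groups of Contig1241 overlap (425940 and 379919 in wild type, 384116 and 346905 in SGA). Those of the other 11 do not, and range from the fall of Contig461 to 14.4 and 12.3 up to the rise of Contig639 to 98170 and 97958.

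At the edge of the rule, whsh_allContig879 was the last member inside, with 8352 and 6279 against wild-type thresholds of 7045 and 6211. The probe whsh_allContig1128 was the first outside, with 7037 and 6454. In SGA the former read 14780 and 15459 and the latter 2305 and 2426. The 2 probes were thus close in wild type, while in SGA the former read higher and the latter lower before scaling. In all, 5 whsh contigs passed the threshold on 1 wild-type array only. Among the 511 tested whsh contigs below the rule the median difference was -0.25, with 101 (19.8%) at least 4-fold lower and 48 (9.39%) at least 2-fold higher.

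The share of members that dropped was larger where the wild-type signal, which enters the difference, was higher. The members were put into 5 equal bins by that signal. In the dimmest bin, with wild-type signals from 6732 to 13011, 29 of 79 were at least 4-fold lower and the median difference was -0.85. In the middle bin 47 of 79 were, with a median of -2.62. In the brightest bin, from 103301 to 402272, 63 of 79 were, with a median of -3.42 and quartiles of -3.69 and -2.71. The other abundant probes in the same signal ranges had medians of -0.24, -0.48 and -0.79, and 12.0%, 12.4% and 20.9% of them were at least 4-fold lower. Across the 395 members, which share the same 4 arrays, the difference and the wild-type signal that enters it had a Spearman correlation of -0.36, and across the 3330 other probes -0.24.

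**Figure D4:**
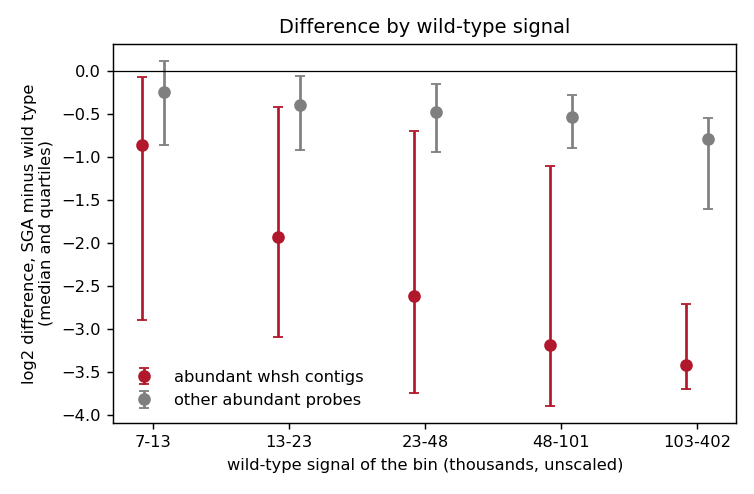
Median (points) and quartiles (bars) of the scaled log2 difference, SGA minus wild type, in 5 ranges of wild-type signal, each holding 79 members. The members' medians go from -0.85 to -3.42 and those of the other abundant probes from -0.24 to -0.79.

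The contig number in the name also went with the size of the fall. Of 47 members numbered above 1200, 45 (95.7%) were at least 4-fold lower, with a median of -3.65 and quartiles of -3.89 and -3.19. Of the 348 members numbered 1200 or below, 186 (53.4%) were, with a median of -2.36 and quartiles of -3.46 and -0.40. High numbers were also brighter in wild type: median signals were 138114 and 26775. Within the brightest 2 bins of members the medians were -3.62 for 41 contigs above 1200 and -3.19 for 117 others. Of these, 40 and 78 were at least 4-fold lower. The 2 sets still differed in wild-type signal within those bins, with medians of 145635 and 96169. Contigs numbered above 1200 were members more often too, 47 of 52 probes (90.4%), against 27.7% to 68.6% in the lower blocks of 200 numbers. No source used here says what the numbering follows.

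**Figure D5:**
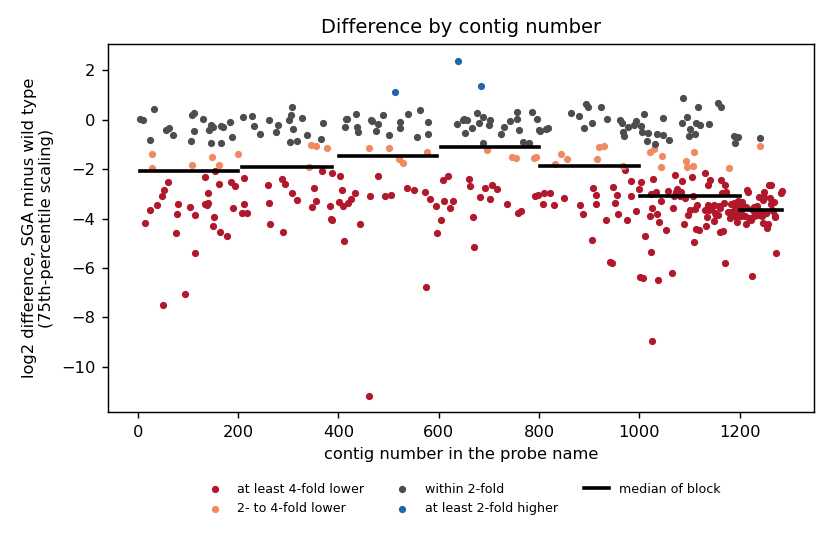
Scaled log2 difference, SGA minus wild type, of each of the 395 members against the contig number in its name, coloured by size of difference, with black lines for the median in each block of 200 numbers. Medians lie between -2.06 and -1.08 up to number 1000, at -3.08 from 1001 to 1200 and at -3.65 above 1200, where 1 of 47 members stays within 2-fold.

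The 395 members come from 394 contigs, so nearly every one stands for a contig of its own, though different contigs may still belong to 1 gene. Of 13 contigs with 2 probes, 1 had both probes among the members. These were whsh_allContig1241, described above, and whsh_allContig1241_2, named after its values were seen, which read 36150 and 30997 on the wild-type arrays and 38493 and 36496 in SGA, with differences of -1.04 and -0.74. In 7 other contigs 1 probe was a member and its partner was dim. The members' wild-type signals there lay between 7759 and 145019 and those of the partners between 16.3 and 95.6. All 7 of those members were at least 4-fold lower in SGA, where 58.5% of all members were. Of the partners, 3 were not well above background on either SGA array and are not counted. Of the 4 partners above background on all arrays, all named after their values were seen, whsh_allContig629_2 and whsh_allContig1137_2 fell, with differences of -1.98 each (limma, adjusted p = 0.0041 and 0.000667). The other 2, whsh_allContig1260 and whsh_allContig1271, did not pass, at -0.26 and -0.38. What distinguishes the probes of a contig is not given here.

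The slides gave close values. The median difference of the members was -2.71 on slide 1 and -2.73 on slide 2, and 231 members were at least 4-fold lower on both. The 2 within-slide differences of a member were 0.051 log2 units apart at the median and 0.37 at most. They had the same sign for 385 of 395 members, and the other 10 had mean differences of at most 0.15. By place on the array, 48.1% of members in the upper right quadrant were at least 4-fold lower and 59.8% to 64.5% in the other quadrants. The part of array position in the results was not tested beyond these values.

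The size of the drop depended on the scaling, and the direction of the held members did too. The members' median was -2.70 with the 75th percentile, -1.82 with spike-in scaling and -2.97 with median scaling, while that of all tested probes was 0.16, 1.04 and -0.11. Falls made up 93.8% of the members' calls with the 75th percentile, 71.8% with spike-in scaling, 76.1% with total-signal scaling, 76.5% with quantile normalization and 81.4% in the authors' deposited values. Under every one of 7 settings, these 5 with median scaling and normexp background correction, 262 members fell, 10 rose and 184 were at least 4-fold lower. A further 65 fell under 1 setting and rose under another. The counts of 262 and 184 equal those with spike-in scaling alone, and 10 equals the rises with median scaling alone. Except for quantile normalization and normexp, the settings differ only by a constant per array, so they are not independent. The same counts for other probes are not given. With the 75th percentile, falls also outnumbered rises among the other abundant probes, at 2216 against 403 by limma's test. Among all tested probes they did not, at 8944 against 12943. How these 2 comparisons change with the other settings was not taken, so the members' shares of falls are a description. The distance between the medians of the members and of the other abundant probes was -2.27 with the main scaling and -2.38 with quantile normalization.

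Abundant probes of some other name classes can be set beside the members. For 41 abundant probes whose names begin with whsh or rwhsh and a number, the median was -1.66, with 14 (34.1%) at least 4-fold lower and 13 within 2-fold. For 239 abundant MUGEST probes it was -1.06, with 81 (33.9%) at least 4-fold lower, and for 219 abundant whfl_allContig probes -0.35, with 18 (8.22%). The largest class, 2044 abundant probes whose names begin with wheat and a number, had a median of -0.37, with 253 (12.4%) at least 4-fold lower. These classes also differed in the wild-type signal that enters the difference. Its median was 24291 for the whsh and rwhsh probes, 12598 for MUGEST, 19289 for whfl_allContig and 16965 for wheat. For the members it was 33266. On each array the median of the members can be set against that of the other 3330 abundant probes: it lay 0.87 and 0.81 log2 units above it in wild type and -0.77 and -0.76 from it in SGA. The groups did not overlap, and with 2 arrays each no exact test of this gap can pass. The members' wild-type values were used to choose them.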

How the data were processed

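RNA of 2 wild-type and 2 SGA samples was labelled with Cy3 and hybridised to single-colour Agilent arrays, per the labels' protocols. Spots were read with Agilent Feature Extraction (version 9.5, per the submitters' processing notes). Intensity as deposited by the authors is linear. The column used here was background-corrected within its array, per the file headers, and not scaled between arrays. The authors' deposited values, the same intensity times a constant per array, served as an alternative.

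Contig names were read from the systematic-name column. Intensity was taken as log2 minus each array's 75th percentile. Of 37826 plant probes, 9 with an outlier flag were left out, and 30005 well above background on both arrays of a group were tested, all 395 members among them. SGA minus wild type was fitted with limma 3.58.1 (lmFit and eBayes, two-sided, Benjamini-Hochberg over all tested probes, threshold 0.05) in R 4.3.3 with the data.table package (1.17.8). The fit was run on simulated data with independent noise on each array, which does not cover deviations shared by arrays of a slide. Figures were drawn with matplotlib 3.10.9. Replicate numbers pair the arrays, since equal numbers share a slide per the file headers. Deviations from the group means correlated at 0.20 between them across tested probes and 0.48 across members.

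The members, fold classes and rule for named probes were chosen with earlier results of these data known. That rule took the 2 largest falls and rises among members measured on all arrays without overlap, the 2 brightest, the 2 nearest to no difference, and the probes on either side of the threshold. Gene lists and cell type markers could not be matched, because no table used here names the contigs' genes. Contig-number blocks, name classes, array quadrants and contigs with 2 probes were looked at after the data were seen. Alternatives were other scalings, normexp on median spot intensity, other filters, other percentiles for the rule, the replicate block and leaving out each array.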

Additional observations from a re-analysis of the deposited data

How the results depend on the processing

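The number of members that fell (332) and that were at least 4-fold lower (231) stayed within 1.5 times under each alternative run. With spike-in scaling 184 of the 395 were at least 4-fold lower, which is no longer most of them. The number that rose (22) was 10 with median scaling, 86 with quantile normalization, 103 with spike-in scaling, 88 with total-signal scaling and 67 in the authors' values. Of the 22 with the main scaling, 3 were at least 2-fold higher, and this count was not taken under the other scalings. Leaving out single arrays gave 12 to 25 rises; the counts were 13 without SGA replicate 1 and 12 without SGA replicate 2. The median difference was -2.97, -2.21, -1.82, -2.07 and -2.29 in the order of scalings above, -2.66 with normexp and -2.73 to -2.71 when single arrays were left out. With the rule at the 95th percentile it was -3.10, with 59 members that held or rose and 9 that rose, and at the 80th -1.91, with 224 and 64; the number of members changes there. Above the 95th percentile of both SGA arrays lay 134 members. The change in the share of signal was -8.78 percentage points, and -8.65 with the 95th percentile rule. Chosen on 1 wild-type array alone, 396 and 399 whsh contigs had medians of -2.71 and -2.68 on the other slide; these hold all 395 members, so nearly the same probes are measured and the effect of the choice is not separated. The replicate block gave 333 falls and 24 rises and changed no call of the named probes. The members nearest to 0 changed sign with scaling: with quantile, spike-in, total-signal and authors' scaling whsh_allContig702 was 0.65, 0.89, 0.64 and 0.41 and whsh_allContig648 was 0.36, 0.88, 0.63 and 0.41, all passing as rises (limma). With median scaling they were -0.26 and -0.27, passing as falls, and whsh_allContig648 was 0.012 with normexp. The edge member whsh_allContig879 was -0.10 with median scaling and passed as a rise under those 4 scalings. Without single arrays whsh_allContig702 lay between -0.026 and 0.032 and whsh_allContig648 between -0.022 and 0.014. Members are bright, so signal over background limits only whsh_allContig461.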
